A study of Mus musculus with 12 samples.

Results

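Coagulation and fibrinolysis in the lung were followed through 9 genes: *F3*, *F7* and *F10* of the initiating step, *Tfpi*, *Thbd* and *Procr* of the inhibitory step, and *Plat*, *Plau* and *Plaur* of plasminogen activation. They were taken by their gene symbols from the 52550 genes of the count table, where all 9 were found, and all 9 passed the filter that left 15885 protein-coding genes for testing. The counts came from bulk RNA sequencing of whole lung from 12 mice, 3 in each of 4 groups, all labelled C57Bl/6J and taken on postnatal day 5. WT (*Adm*+/+) and *Adm*+/- mice, which carry 1 disrupted allele of the gene for adrenomedullin, a vasodilator peptide, were given intraperitoneal PBS or 6 mg/kg LPS from Escherichia coli O55:B5 on each of 3 days, beginning on postnatal day 3, and the lungs were frozen 6 h after the last dose. Replicates are named by their library numbers: among WT mice 3, 4 and 5 received PBS and 9, 10 and 11 LPS, and among *Adm*+/- mice 6, 7 and 8 received PBS and 1, 2 and 12 LPS. LPS, a component of the outer membrane of Gram-negative bacteria, stands in here for postnatal sepsis. The *Adm*+/- allele had been moved from a 129/SvEv background by backcrossing.

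Clotting starts when tissue factor, the product of *F3*, binds factor VII and the pair activates factor X, which with factor V turns prothrombin into thrombin. Tissue factor pathway inhibitor blocks that first step, while thrombomodulin and the endothelial protein C receptor, both on endothelium, turn thrombin towards activating protein C, which shuts clotting down. Clots are dissolved by plasmin, made from plasminogen by tissue-type and urokinase-type plasminogen activators, the latter held at the cell surface by the receptor that *Plaur* encodes. In inflamed lung this balance is known to shift towards fibrin deposition. Most clotting factors in plasma come from the liver.

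LPS was followed by higher RNA of 5 of the 9 genes in WT lungs and of 6 of the 9 in *Adm*+/- lungs, and none of the 9 was called lower. *F3*, *F7*, *F10*, *Plat* and *Plaur* rose in both genotypes, and *Procr* rose in *Adm*+/- lungs. Under a stricter test, of a change beyond 0.5 and not of any change (limma's treat), *F10* alone of the 9 was called in WT mice, with adjusted p = 0.135 for *F3*, 0.166 for *F7*, 0.185 for *Plat* and 0.345 for *Plaur*, while in *Adm*+/- mice *F3*, *F7*, *F10*, *Plat* and *Plaur* were called and *Procr* was not. *Tfpi*, *Thbd* and *Plau* gave other values. The LPS libraries overlapped the PBS libraries for *Tfpi* and *Plau* in both genotypes. *Thbd*, by far the most abundant of the 9, was lower in every LPS library than in every PBS library of its genotype. It did not meet both criteria of the call in either genotype. A gene was called at a Benjamini-Hochberg adjusted p under 0.05, from edgeR's quasi-likelihood test over all 15885 genes, together with an absolute log2 fold change over 0.5. In WT mice 17.6% of all genes tested were called, 10.5% as higher, and in *Adm*+/- mice 25.0% were called, 12.8% as higher. The median log2 fold change of the 9 genes was 0.94 in WT and 1.25 in *Adm*+/- mice, beside 0.01 and -0.01 over all genes tested. The 9 genes were chosen with earlier results of these data known, so these shares and medians are not independent evidence about the pathway. Levels are given as CPM, reads of a gene per 1000000 reads of the library after scaling by the trimmed mean of M values (TMM).

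**Figure D1:**
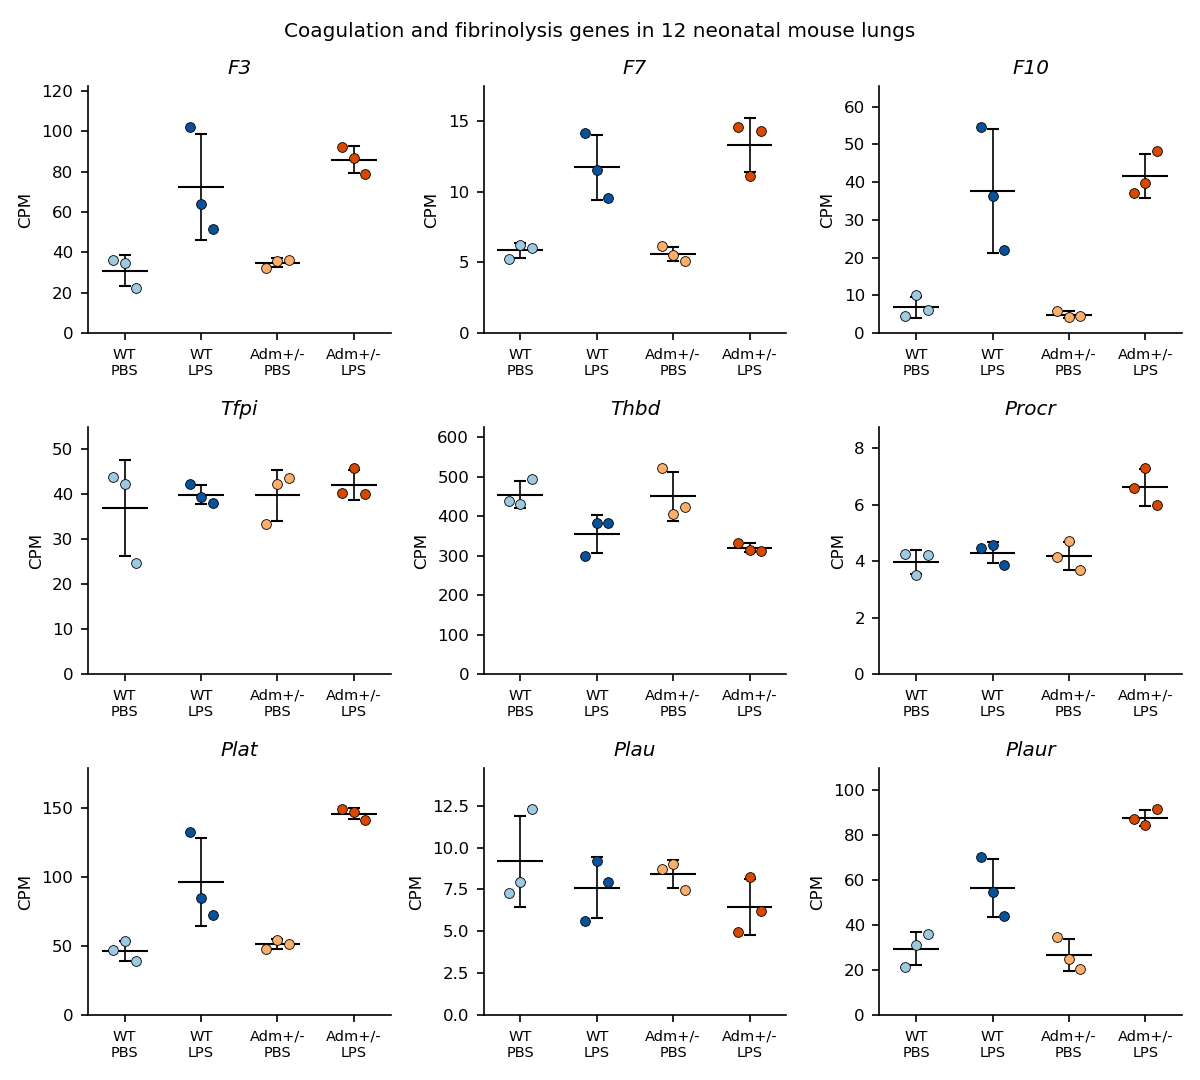
CPM (linear axis from 0) of the 9 genes in 12 lungs, 1 panel per gene; each point is 1 library in order of replicate number, the bar is the group mean and the whisker 1 SD (n = 3). The LPS points of *F3*, *F7*, *F10*, *Plat* and *Plaur* lie above all PBS points of their genotype, while those of *Tfpi* and *Plau* overlap them.

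Promoter sequence was at hand for 6 of the 9 genes, in RefSeq windows on GRCm38.p6 that run from 250 bases before to 50 bases after a transcription start; *Thbd*, *Plat* and *Plau* had no window. Both strands were searched for the letters TGANTCA (AP-1), GGGCGG (Sp1) and GCGNGGGCG (Egr1) and for the NF-kappa B consensus GGGRNWYYCC. In these R is A or G, Y is C or T, W is A or T and N is any base. Egr1 and Sp1 letters can overlap. Among 32851 windows of 300 bases over the genome, 7.81% held the AP-1 letters, 35.7% the Sp1 letters, 5.55% the Egr1 letters and 4.51% the NF-kappa B consensus. AP-1 is a dimer of Fos and Jun proteins that many inflammatory signals switch on, Sp1 is a general activator at GC-rich promoters, and Egr1 is an immediate early factor. The windows of *F3*, *Plaur* and *Procr* are printed because they are the ones that held AP-1 letters, and that of *F10* because its RNA had the largest rise of the 9. Each is written from 5′ to 3′ along the gene, all on the + strand, with motif letters in capitals.
*F3*, chr3:121723287-121723586: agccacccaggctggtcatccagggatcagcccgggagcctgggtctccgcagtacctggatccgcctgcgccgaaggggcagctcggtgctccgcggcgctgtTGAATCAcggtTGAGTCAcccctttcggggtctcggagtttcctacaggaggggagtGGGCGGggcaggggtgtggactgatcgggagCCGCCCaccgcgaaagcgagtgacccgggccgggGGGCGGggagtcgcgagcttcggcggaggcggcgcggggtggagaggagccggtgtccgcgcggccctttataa
*Plaur*, chr7:24462233-24462532: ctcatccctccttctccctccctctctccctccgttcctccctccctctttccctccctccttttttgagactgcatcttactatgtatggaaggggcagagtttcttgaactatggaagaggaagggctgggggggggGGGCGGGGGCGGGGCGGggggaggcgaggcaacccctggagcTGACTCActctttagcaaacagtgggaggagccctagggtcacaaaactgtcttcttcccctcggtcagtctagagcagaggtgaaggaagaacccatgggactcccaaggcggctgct
*Procr*, chr2:155750967-155751266: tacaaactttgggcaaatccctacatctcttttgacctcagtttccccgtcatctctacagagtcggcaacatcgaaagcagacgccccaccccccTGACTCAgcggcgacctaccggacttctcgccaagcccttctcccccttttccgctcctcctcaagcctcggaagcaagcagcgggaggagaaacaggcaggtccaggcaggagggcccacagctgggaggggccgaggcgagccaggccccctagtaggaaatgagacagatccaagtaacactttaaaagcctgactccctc
*F10*, chr8:13037058-13037357: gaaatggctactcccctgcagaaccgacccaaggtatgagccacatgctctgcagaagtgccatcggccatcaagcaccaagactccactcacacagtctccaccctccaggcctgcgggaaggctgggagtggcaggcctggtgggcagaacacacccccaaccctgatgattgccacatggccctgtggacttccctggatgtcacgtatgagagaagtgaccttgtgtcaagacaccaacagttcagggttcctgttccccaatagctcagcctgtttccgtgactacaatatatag
The *F3* window held the AP-1 letters at 2 places, beginning at -146 and -135 from the start site, and the Sp1 letters at 3. The *Plaur* window held AP-1 letters at -69, and upstream of them, from -111 on, lay 3 Sp1 matches and 1 Egr1 match that overlapped in part. The *Procr* window held AP-1 letters at -154 and no other motif searched. The RefSeq start site of that window lies inside the Gencode bounds given for *Procr* below, so -154 does not count from their first base. No letters of these motifs were found in the windows of *F7* and *F10*, and the 2 windows of *Tfpi* held Sp1 letters only. A match describes these letters and not a bound site. Sites that depart from the letters were not searched for, so a window without a match can still hold one.

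Per kilobase of merged exons, *Thbd* stood far above the others in WT PBS lungs, at 122 ± 9.39 CPM per kb (SD, n = 3). Next came *F3* at 12.2 ± 3.00, *Plaur* at 11.3 ± 2.80, *Plat* at 7.48 ± 1.17, *Tfpi* at 6.74 ± 1.94, *Plau* at 3.88 ± 1.15, *F7* at 3.15 ± 0.268, *F10* at 2.51 ± 1.02 and *Procr* at 1.96 ± 0.206 CPM per kb. From *F3* downwards every pair of neighbours in that order overlapped between libraries, so only *Thbd* was separated from the gene after it. In *Adm*+/- LPS lungs the order was *Thbd* (85.8 ± 3.01), *F3* (33.95 ± 2.67), *Plaur* (33.5 ± 1.37), *Plat* (23.4 ± 0.638), *F10* (15.3 ± 2.16), *Tfpi* (7.67 ± 0.602), *F7* (7.17 ± 1.04), *Procr* (3.26 ± 0.321) and *Plau* (2.73 ± 0.698 CPM per kb). There *F10* lay above *Tfpi* with no overlap, whereas in WT PBS lungs it lay below it, and *F3* with *Plaur*, *Tfpi* with *F7*, and *Procr* with *Plau* were the pairs of neighbours that overlapped. In WT LPS lungs the order was the same except for the last pair, with *Plau* at 3.21 ± 0.769 above *Procr* at 2.12 ± 0.189 CPM per kb.

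*F3*, which encodes tissue factor, lies on chr3:121723537-121735048 (+ strand, mm10; gene bounds here and below from Gencode M21). In order of replicate number it was at 36.04, 34.5 and 22.2 CPM in WT PBS, 102, 64.1 and 51.4 CPM in WT LPS, 32.3, 35.8 and 36.3 CPM in *Adm*+/- PBS and 92.1, 86.6 and 78.7 CPM in *Adm*+/- LPS lungs. Every LPS library was above every PBS library, and WT LPS replicate 9 had the highest level of all. The log2 fold change was 1.23 ± 0.24 (SE, adjusted p = 0.00471, edgeR) in WT and 1.30 ± 0.24 (adjusted p = 0.00183) in *Adm*+/- mice. The 2 responses differed by 0.07 on the log2 scale, with a 95% interval of -0.65 to 0.79.

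*F7* and *F10*, which encode the clotting proteases factors VII and X, lie side by side on chromosome 8, *F7* at chr8:13026034-13035809 and *F10* at chr8:13037308-13056676, both on the + strand with 1498 bases between them. *F10* was at 4.54, 9.95 and 6.05 CPM in WT PBS, 54.5, 36.4 and 21.9 CPM in WT LPS, 5.94, 4.19 and 4.57 CPM in *Adm*+/- PBS and 37.1, 39.6 and 48.3 CPM in *Adm*+/- LPS lungs. The lowest LPS library was more abundant in *F10* than any PBS library, and the WT LPS libraries spread more widely than those of *Adm*+/- LPS. The rise on the log2 scale was 2.46 ± 0.34 (5.51-fold, adjusted p = 0.000853, edgeR) in WT and 3.09 ± 0.35 (8.54-fold, adjusted p = 0.000132) in *Adm*+/- mice, the largest of the 9 genes in each. The difference between these responses was 0.63 (95% interval -0.39 to 1.66, adjusted p = 0.882).

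*F7* moved less than *F10*. It was at 5.28, 6.21 and 6.05 CPM in WT PBS, 14.1, 11.6 and 9.56 CPM in WT LPS, 6.15, 5.54 and 5.13 CPM in *Adm*+/- PBS and 14.6, 11.1 and 14.3 CPM in *Adm*+/- LPS lungs. The PBS libraries of both genotypes lay close together and all LPS libraries lay above them. *F7* rose by a log2 fold change of 1.01 ± 0.18 (adjusted p = 0.00277, edgeR) in WT and 1.25 ± 0.18 (adjusted p = 0.000407) in *Adm*+/- mice.

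The gene after *F10* on that strand is *Proz*, at chr8:13060914-13076026, which encodes protein Z, a cofactor that helps a serpin inhibit factor Xa. It too rose, from 3.50, 6.75 and 3.65 CPM in WT PBS to 18.6, 11.4 and 6.45 CPM in WT LPS lungs, and from 3.84, 3.38 and 2.98 CPM in *Adm*+/- PBS to 25.7, 25.9 and 28.5 CPM in *Adm*+/- LPS lungs. The WT groups overlapped and the *Adm*+/- groups did not. Its log2 fold change was 1.39 ± 0.35 (adjusted p = 0.0163, edgeR) in WT, which was 0.94 (adjusted p = 0.0819) without WT LPS replicate 9, and 2.97 ± 0.36 (adjusted p = 0.000181) in *Adm*+/- mice. Its difference in response was 1.58 (95% interval 0.52 to 2.65, adjusted p = 0.405), and its level in LPS lungs was 1.13 higher in *Adm*+/- mice on the log2 scale (adjusted p = 0.106), which DESeq2 called at 1.14 (adjusted p = 0.0189), as did edgeR at 1.59 without WT LPS replicate 9 (adjusted p = 0.0261). The nearest flanking genes were not called: *Mcf2l*, before *F7*, had log2 fold changes of 0.24 (adjusted p = 0.399) in WT and 0.52 (adjusted p = 0.0667) in *Adm*+/- mice, and *Pcid2*, after *Proz*, of 0.01 and 0.16. For *Mcf2l* the value in *Adm*+/- mice passed with DESeq2, at 0.53 (adjusted p = 0.0401), and *Atp11a*, the next gene upstream, rose in *Adm*+/- mice by 0.63 (adjusted p = 0.000586, edgeR). *F7*, *F10* and *Proz* were thus 3 neighbours that were called higher in both genotypes, but the WT call of *Proz* was also lost when WT PBS replicate 5 and *Adm*+/- PBS replicate 6, which stand apart as given further on, were left out (adjusted p = 0.0508) and when the WT libraries alone were fitted (adjusted p = 0.0910).

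Of the inhibitory genes, *Tfpi*, which encodes tissue factor pathway inhibitor and lies at chr2:84432855-84476775 on the - strand, showed no response that could be told from the spread. It was at 43.7, 42.1 and 24.6 CPM in WT PBS, 42.3, 39.3 and 38.1 CPM in WT LPS, 33.2, 42.2 and 43.6 CPM in *Adm*+/- PBS and 40.2, 45.7 and 39.9 CPM in *Adm*+/- LPS lungs. WT PBS replicate 5 was the low library, and all the rest lay between 33.2 and 45.7 CPM. The log2 fold changes were 0.11 (95% interval -0.30 to 0.53) in WT and 0.08 (-0.34 to 0.49) in *Adm*+/- mice, so a rise of the size seen for *F3* lay outside both intervals.

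*Thbd*, a single-exon gene at chr2:148404466-148408188 on the - strand, encodes thrombomodulin, the endothelial receptor that captures thrombin. It was at 438, 429.9 and 494 CPM in WT PBS, 299 CPM in WT LPS replicate 9 and 383 and 382 CPM in the other WT LPS libraries, 521, 405 and 424 CPM in *Adm*+/- PBS and 332, 314 and 312 CPM in *Adm*+/- LPS lungs. Each LPS library was below each PBS library of its genotype, as was the case in either direction for 36.2% of all genes in WT and 53.7% in *Adm*+/- mice, and for 6 and 7 of the 9 genes. On the log2 scale the change was -0.36 ± 0.13 (adjusted p = 0.0623, edgeR) in WT mice. In *Adm*+/- mice it was -0.50 ± 0.13 (adjusted p = 0.0118), a fold of 0.709, whose unrounded size lay just inside the limit of 0.5. It passed that limit when the filter on low counts was dropped (adjusted p = 0.0121) or when all annotated genes were tested (-0.51, adjusted p = 0.0197). The summed level of 10 endothelial marker genes moved in the same direction, from 3292 to 4089 CPM in WT PBS to 2779 to 2905 CPM in WT LPS lungs and from 3457 to 3885 CPM in *Adm*+/- PBS to 3061 to 3369 CPM in *Adm*+/- LPS lungs. Of those 10 genes 2 were called lower in WT and 3 in *Adm*+/- mice, and none higher; the 2 most abundant, *Cdh5* and *Pecam1*, averaged 668 and 440.4 CPM in WT PBS against 600.2 and 503 CPM in WT LPS lungs, and in *Adm*+/- lungs 692 and 447 CPM with PBS against 737 and 585 CPM with LPS. The part of these cells in the level of *Thbd* was not tested, and in RNA of whole lung fewer cells of a type and less RNA per cell cannot be told apart.

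*Procr*, at chr2:155751117-155755471 on the + strand, encodes the endothelial protein C receptor, which presents protein C to the thrombin held by thrombomodulin. It was the least abundant of the 9 per kilobase in WT PBS lungs, and was at 4.23, 3.49 and 4.20 CPM in WT PBS, 4.47, 4.57 and 3.86 CPM in WT LPS, 4.16, 4.70 and 3.70 CPM in *Adm*+/- PBS and 6.58, 7.29 and 5.99 CPM in *Adm*+/- LPS lungs. The *Adm*+/- LPS libraries lay above the other 9, which overlapped each other. Its log2 fold change was 0.11 ± 0.16 (adjusted p = 0.638, edgeR) in WT and 0.66 ± 0.16 (adjusted p = 0.00942) in *Adm*+/- mice. When the test was set against a change of 0.5 instead of 0 (limma's treat), the *Adm*+/- value of 0.65 had an adjusted p of 0.794. The summed endothelial markers were lower in these lungs than in *Adm*+/- PBS lungs, as given beside *Thbd*.

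**Figure D2:**
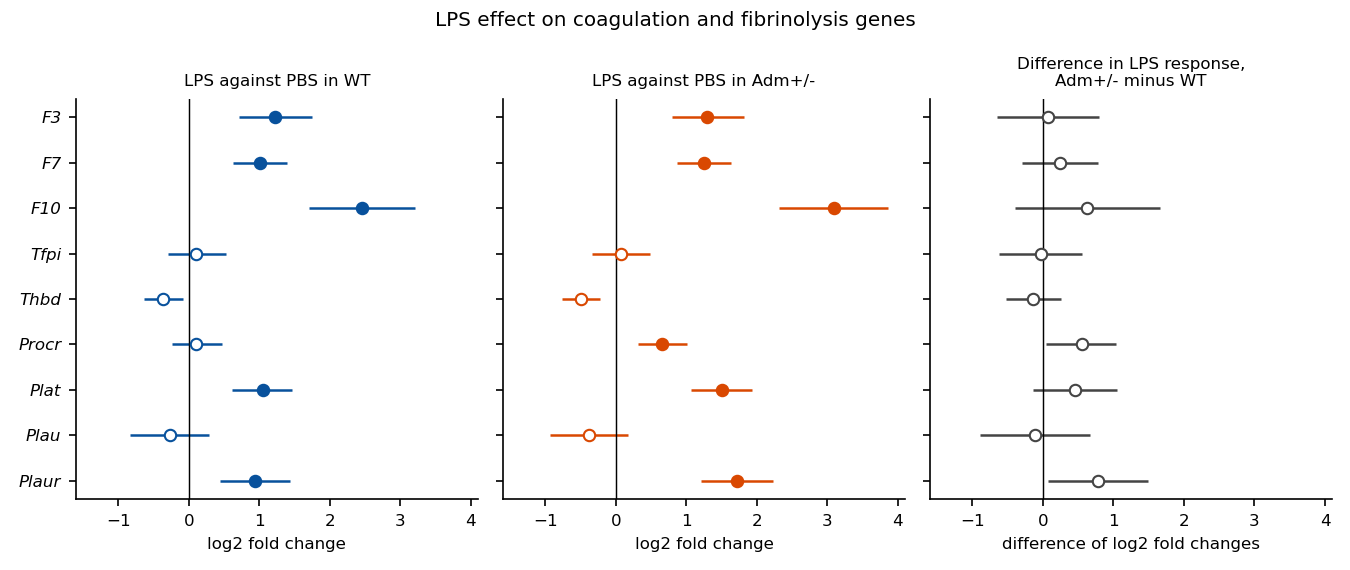
Log2 fold change of each gene, LPS against PBS, in WT and in *Adm*+/- mice, and the difference between the 2 genotypes in that response; lines are 95% intervals and filled points are called (n = 3 libraries per group). *F3*, *F7*, *F10*, *Plat* and *Plaur* are filled in both genotypes, *Procr* in *Adm*+/- only, and no point is filled in the panel of differences.

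Of the plasminogen activators, *Plat*, which encodes the tissue-type enzyme and lies at chr8:22757727-22782844 on the + strand, rose, and *Plau*, the urokinase gene at chr14:20836660-20843385 on the + strand, did not pass the test. *Plat* was at 46.9, 53.9 and 39.3 CPM in WT PBS, 133, 84.7 and 72.4 CPM in WT LPS, 47.9, 54.8 and 51.8 CPM in *Adm*+/- PBS and 149, 147 and 142 CPM in *Adm*+/- LPS lungs. The *Adm*+/- LPS libraries were the highest, from 142 to 149 CPM. *Plat* rose by a log2 fold change of 1.05 ± 0.19 (adjusted p = 0.00396, edgeR) in WT and 1.50 ± 0.20 (adjusted p = 0.000270) in *Adm*+/- mice.

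*Plau* was at 7.26, 7.96 and 12.3 CPM in WT PBS, 5.61, 9.19 and 7.96 CPM in WT LPS, 8.73, 9.02 and 7.47 CPM in *Adm*+/- PBS and 4.94, 8.21 and 6.20 CPM in *Adm*+/- LPS lungs, and the groups overlapped in both genotypes. Its log2 fold change was -0.27 (95% interval -0.83 to 0.29) in WT and -0.38 (-0.94 to 0.17) in *Adm*+/- mice.

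*Plaur*, at chr7:24462484-24475968 on the + strand, encodes the urokinase receptor, found on neutrophils, monocytes and activated endothelium. It was at 21.4, 31.1 and 35.8 CPM in WT PBS, 70.0, 54.8 and 44.2 CPM in WT LPS, 34.6, 24.9 and 20.4 CPM in *Adm*+/- PBS and 87.1, 84.4 and 91.5 CPM in *Adm*+/- LPS lungs. Every *Adm*+/- LPS library lay above every WT LPS library, and those lay above all PBS libraries. *Plaur* rose by a log2 fold change of 0.94 ± 0.23 (adjusted p = 0.0151, edgeR) in WT and 1.72 ± 0.23 (adjusted p = 0.000333) in *Adm*+/- mice. The WT call depended on WT LPS replicate 9: without it the adjusted p was 0.0794. It was 0.0556 when only the 6 WT libraries were fitted.

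No gene of the 9 differed between genotypes past the threshold. In PBS lungs none was called and none had groups that did not overlap, where 0% of all genes were called and 4.99% did not overlap; 344 genes had an unadjusted p under 0.05, none of the 9 among them, and DESeq2 and limma-voom also called none. In LPS lungs 2.05% of all genes were called and 24.6% had groups that did not overlap. *Procr*, *Plat* and *Plaur* were the 3 of the 9 that did not overlap there, all with higher levels in *Adm*+/- lungs. The log2 difference was 0.62 ± 0.16 (adjusted p = 0.0708, edgeR) for *Procr*, 0.59 ± 0.19 (adjusted p = 0.149) for *Plat* and 0.64 ± 0.23 (adjusted p = 0.198) for *Plaur*. DESeq2 called *Procr* (adjusted p = 0.0103), and without WT LPS replicate 9 edgeR called *Plat*, at 0.90 (adjusted p = 0.0109). For *F3*, *F7* and *F10* the values in LPS lungs were 0.24, 0.18 and 0.15, for *Tfpi* 0.07, for *Thbd* -0.15 and for *Plau* -0.23, all with overlapping groups.

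The difference in the LPS response itself was called for 0.145% of all genes and for none of the 9. For *Plaur* it was 0.78 (95% interval 0.07 to 1.49, adjusted p = 0.569, edgeR) and for *Procr* 0.55 (0.05 to 1.04, adjusted p = 0.575), the 2 of the 9 with an unadjusted p under 0.05, as had 1247 of the 15885 genes. The comparisons of the genotypes share libraries with those of LPS and PBS, so these values are not separate evidence.

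Of 42 further genes of clotting and fibrinolysis, 34 passed the filter; *F9*, *F11*, *F12*, *F13b*, *Kng1*, *Serpina5*, *Serpinf2* and *Cpb2* did not. In WT mice 9 rose and 2 fell, and in *Adm*+/- mice 8 rose and none fell, where 17.6% and 25.0% of all genes tested were called in either direction, so that the share called in *Adm*+/- mice was near that of all genes. The median log2 fold change of the 34 was 0.31 in WT and 0.36 in *Adm*+/- mice, beside 0.01 and -0.01 over all genes. This list too was chosen with earlier results of these data known. Of the 9 clotting factors tested, 4 rose in each genotype: *F5*, *F13a1* and *Fga* in both, *Fgb* in WT and *Fgg* in *Adm*+/- mice. *Klkb1*, the gene of plasma prekallikrein, was at 1.51 in WT mice (adjusted p = 0.0593, edgeR) and was called there by DESeq2 and limma-voom, but had 0 to 29 reads per library and shares 2267 exonic bases with another gene. None of the 3 enzymes of the vitamin K cycle passed the test. Of 9 other anticoagulant genes *Proz* was called in both genotypes; *Serpina10*, the protein Z-dependent inhibitor, and *Serpind1*, heparin cofactor II, were at 0.79 and 0.56 in *Adm*+/- mice (adjusted p = 0.0643 and 0.0648) and were called there by DESeq2. *Klkb1*, *Serpina10* and *Serpind1* are named because of these values, after they had been seen. Of 9 other fibrinolysis genes, *Serpinb2* and *S100a10* rose and *Serpine2* and *A2m* fell in WT mice, while *Serpinb2* rose in *Adm*+/- mice. Of the 4 protease-activated receptors, *F2rl1* and *F2rl2* rose in WT and *F2r* and *F2rl2* in *Adm*+/- mice. With 1 library left out in turn, the WT call of *F2rl1* held in 8 of 12 fits (adjusted p up to 0.139, edgeR, without WT LPS replicate 9). That of *F2rl2* held in 7 (up to 0.0847, without WT PBS replicate 4), and its *Adm*+/- call in 8 (up to 0.0869, without *Adm*+/- LPS replicate 12). Each of these calls was also lost without both WT PBS replicate 5 and *Adm*+/- PBS replicate 6. Both WT calls were lost when the WT libraries alone were fitted. The *S100a10* call was lost without WT LPS replicate 9 (0.63, adjusted p = 0.110) and when the WT libraries alone were fitted (adjusted p = 0.0932).

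**Figure D3:**
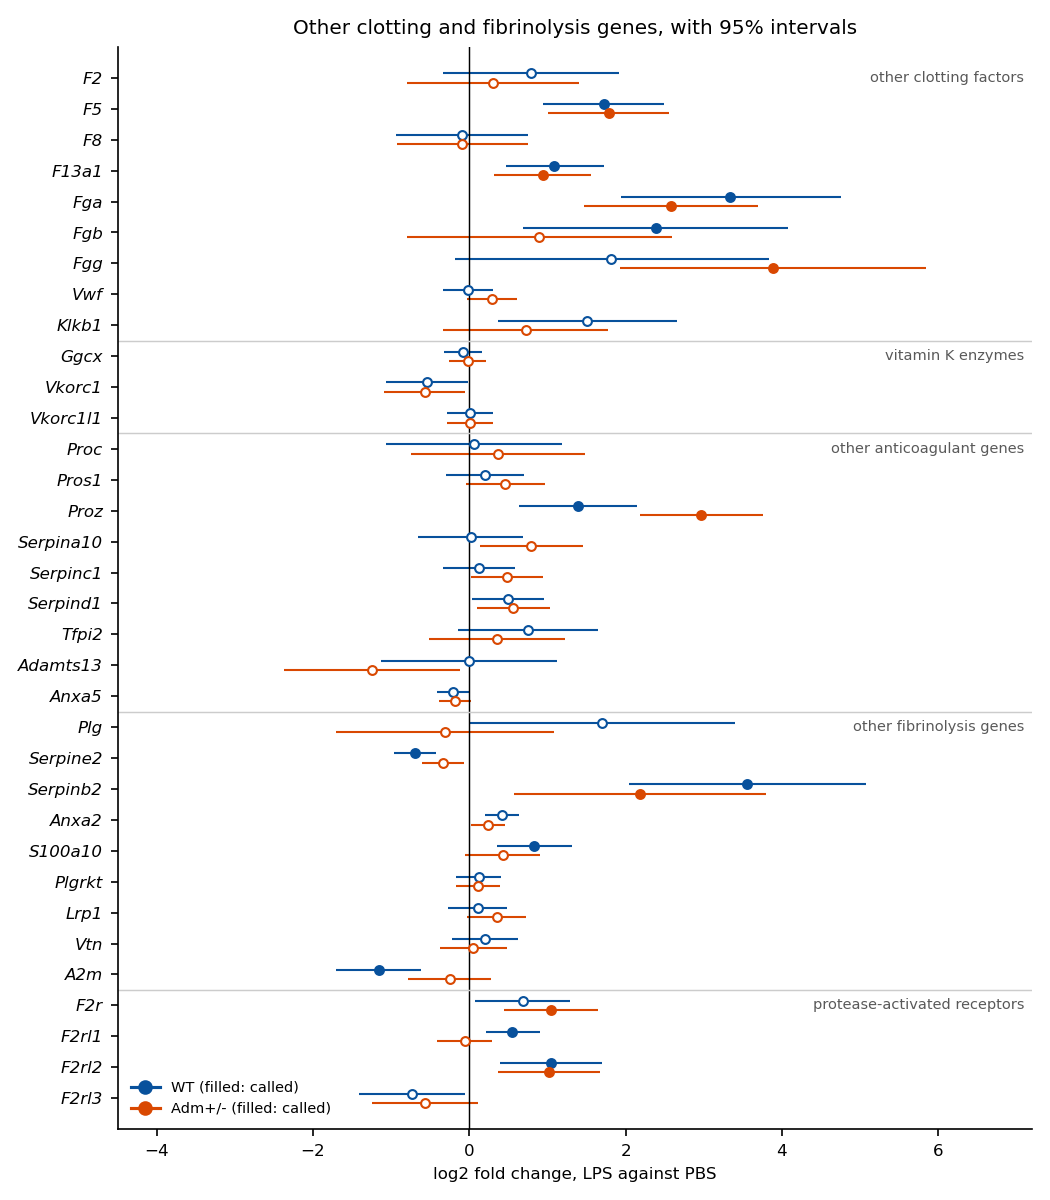
Log2 fold change, LPS against PBS, of the 34 other clotting and fibrinolysis genes that were tested, in WT and in *Adm*+/- mice; lines are 95% intervals, filled points are called and grey lines part the lists. *Proz* lies further right in *Adm*+/- (2.97) than in WT mice (1.39), with a difference in response that was not called.

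**Figure D4:**
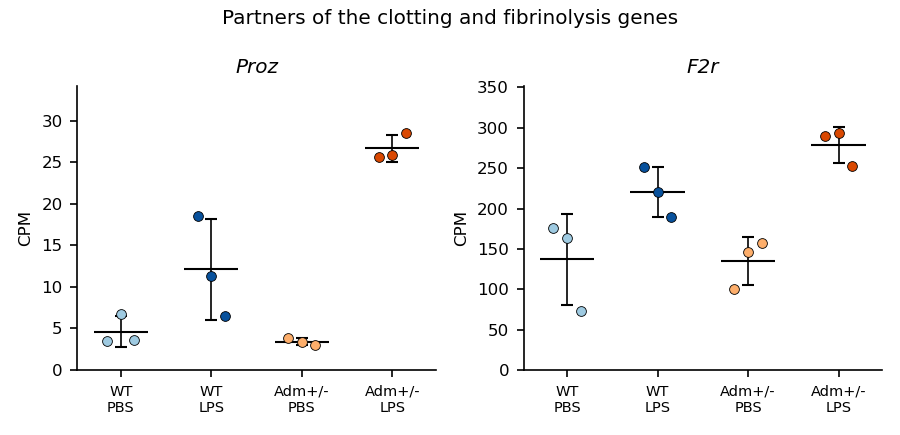
CPM (linear axis from 0) of *Proz* and the thrombin receptor gene *F2r* by group; points are libraries, bars group means and whiskers 1 SD (n = 3). *Proz* reaches 25.7 to 28.5 CPM in *Adm*+/- LPS lungs and spreads from 6.45 to 18.6 CPM in WT LPS lungs.

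*F5*, the gene of the factor V that works beside factor Xa, went from 2.80 ± 1.41 to 9.36 ± 1.70 CPM in WT and from 2.54 ± 0.548 to 8.78 ± 2.19 CPM in *Adm*+/- mice (SD, n = 3), a rise of 1.72 (adjusted p = 0.00676, edgeR) in WT and 1.79 (adjusted p = 0.00314) in *Adm*+/- mice on the log2 scale. *F13a1*, whose product cross-links fibrin and is made by monocytes and macrophages, went from 18.2 ± 0.641 to 38.8 ± 16.4 CPM in WT and from 13.8 ± 1.71 to 26.4 ± 7.48 CPM in *Adm*+/- mice, a rise of 1.09 (adjusted p = 0.0196) in WT and 0.94 (adjusted p = 0.0273) in *Adm*+/- mice. The WT call of *F13a1* was lost without WT LPS replicate 9 (0.73, adjusted p = 0.0986), and the *Adm*+/- call was lost in 5 of 12 fits with 1 library left out (adjusted p up to 0.113). Exons of *F5* and *F13a1* overlap those of other annotated genes, by 262 and 74 bases. The genes *Lrp1*, *Anxa2*, *Anxa5*, *Pros1*, *Plgrkt*, *Ggcx* and *Vkorc1l1*, which also reached 10 CPM on average, were not called. *Lrp1*, whose product clears complexes of proteases with their inhibitors, averaged 1218 to 1553 CPM over the 4 groups. *Anxa2*, the partner of *S100a10* at the cell surface, went from 314 ± 7.75 to 421 ± 55.3 CPM in WT mice (log2 fold change 0.42, adjusted p = 0.0127, edgeR), short of the limit of 0.5, and was at 0.24 (adjusted p = 0.0920) in *Adm*+/- mice. *Anxa5* was at -0.21 and -0.18 on that scale in WT and *Adm*+/- mice, *Pros1*, the gene of protein S, at 0.20 and 0.46, *Plgrkt* at 0.12 and 0.11, and the vitamin K enzymes *Ggcx* at -0.08 and -0.02 and *Vkorc1l1* at 0.01 in both. *Vwf*, the gene of von Willebrand factor, made by endothelium, averaged 439 to 537 CPM in the 4 groups, with log2 fold changes of -0.02 in WT and 0.29 in *Adm*+/- mice and adjusted p values of 0.931 and 0.155.

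*F2r*, which encodes the main thrombin receptor PAR1, was at 175, 163 and 72.5 CPM in WT PBS, 252, 220.2 and 189.6 CPM in WT LPS, 100.7, 147 and 158 CPM in *Adm*+/- PBS and 290, 293 and 253 CPM in *Adm*+/- LPS lungs. All LPS libraries lay above all PBS libraries. On the log2 scale the change was 0.69 ± 0.28 (adjusted p = 0.0965, edgeR) in WT and 1.05 ± 0.28 (adjusted p = 0.0149) in *Adm*+/- mice, the latter 0.87 without *Adm*+/- PBS replicate 6 (adjusted p = 0.0641). *Serpine2*, encoding protease nexin 1, an inhibitor of thrombin and of plasminogen activators, fell in WT mice from 259 ± 15.7 to 160.4 ± 25.8 CPM (log2 fold change -0.69, adjusted p = 0.00324). In *Adm*+/- mice it was at 267 ± 14.95 and 211 ± 22.9 CPM, a log2 fold change of -0.34 that was not called (adjusted p = 0.0546, edgeR). Its difference in response, 0.35, was not called (adjusted p = 0.684). *A2m*, a broad protease inhibitor, fell in WT mice from 15.1 ± 4.52 to 6.78 ± 1.61 CPM (log2 fold change -1.16, adjusted p = 0.00778).

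Several genes of this pathway that the liver makes had few reads. *Plg*, the gene of plasminogen itself, had 1 to 25 reads per library, *F2*, that of prothrombin, 4 to 28, and *Proc*, that of protein C, 6 to 24, and none was called. *Fga* had 1 to 22 reads in PBS and 23 to 81 in LPS libraries, and *Fgg* up to 16 and 12 to 138, so that their log2 fold changes, 3.34 and 1.82 in WT and 2.58 and 3.88 in *Adm*+/- mice, rest on few reads. *Adm*+/- PBS replicate 7 had 22 reads of *Fga*, 17 of *Fgb*, 16 of *Fgg* and 25 of *Plg*, the most of its group, and its sum of 8 hepatocyte markers was 32.5 CPM against 7.73 and 7.16 CPM in the others of that group. Without it the log2 fold change in *Adm*+/- mice was 3.46 for *Fga*, 6.90 for *Fgg* and 3.20 for *Fgb*, the last then called (adjusted p = 0.0245, edgeR). The part of liver RNA in these values was not tested. *Serpinb2*, the gene of plasminogen activator inhibitor 2, had 2 to 10 reads in PBS, 32 to 235 in WT LPS and 21 to 40 in *Adm*+/- LPS libraries, and shares 291 exonic bases with *Serpinb10*; its call in *Adm*+/- mice held in 4 of the 12 fits with 1 library left out, with adjusted p up to 0.140 (without *Adm*+/- LPS replicate 2). The *Fgb* call in WT mice held in 5 of those 12 fits, with adjusted p up to 0.160 (without WT LPS replicate 9), and was lost when no filter was used (adjusted p = 0.0539).

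Markers of other cells moved with LPS in the same lungs. The summed level of 10 neutrophil genes, led by *S100a9* and *S100a8*, was 59.5 to 186 CPM in WT PBS, 1698 to 2965 CPM in WT LPS, 40.7 to 68.3 CPM in *Adm*+/- PBS and 1606 to 1922 CPM in *Adm*+/- LPS lungs; 9 of the 10 rose in WT and 10 in *Adm*+/- mice. For 12 monocyte and macrophage genes the ranges were 1071 to 1311, 1753 to 2365, 1038 to 1262 and 1977 to 2438 CPM in that order of groups, and 9 and 8 rose. For 10 platelet genes they were 49.2 to 59.0, 77.3 to 90.0, 38.96 to 55.3 and 55.1 to 98.5 CPM, with 1 and 3 called higher. For 8 hepatocyte genes they were 6.42 to 18.4, 15.5 to 72.8, 7.16 to 32.5 and 18.1 to 27.0 CPM; 2 of the 8, *Tat* and *Cyp2e1*, rose in each genotype, while *Alb* was not called (log2 fold changes 2.0 and 0.57, adjusted p = 0.0684 and 0.574). For 8 lung fibroblast genes, led by *Col1a1* and *Col3a1*, the sums were lower with LPS, at 14960 to 43340, 10350 to 14780, 14340 to 27650 and 10920 to 13000 CPM, although 3 of the 8 were called higher in WT and 1 higher and 1 lower in *Adm*+/- mice. The part of any of these cells in the levels of *Serpine2*, *F10*, *Plaur*, *F7*, *Proz* or the fibrinogen genes was not tested.

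In WT LPS lungs alone, genes of other tissues were abundant: 15 squamous epithelium genes summed to 3617 CPM in replicate 9, 40.3 CPM in replicate 10 and 1851 CPM in replicate 11, against 8.95 to 56.4 CPM in all other libraries, and 12 skeletal muscle genes to 2074, 2129 and 778 CPM against 18.7 to 58.2 CPM. Of these squamous genes 10 rose in WT mice and none in *Adm*+/- mice, and *Krt4* and *Krt13* led them, with *Tmprss11b*, *Sprr1a*, *Sprr3* and *Krtdap* at 0 in WT PBS and *Krt6a*, *Tmprss11b*, *Sprr3*, *Dsg3* and *Krtdap* at 0 in *Adm*+/- PBS lungs. Of the muscle genes, led by *Myh8* and *Acta1*, 11 rose in WT and 1 in *Adm*+/- mice; *Myh4* was at 0 in WT PBS and *Tnnc2* in *Adm*+/- PBS lungs. Replicate 9 was also the WT LPS library with the highest *F3*, *F7*, *F10*, *Plat* and *Plaur*, while replicate 11, rich in squamous markers too, had the lowest of all these genes. With replicates 9 and 11 both left out, so that replicate 10 alone stood for WT LPS and was assumed to vary like the other groups, *F3* (1.05, adjusted p = 0.0331, edgeR), *F7* (0.98, adjusted p = 0.0310), *F10* (2.41, adjusted p = 0.00434) and *Plat* (0.86, adjusted p = 0.0198) were still called in WT mice and *Plaur* (0.90, adjusted p = 0.138) was not. None of the other pathway genes (37 passed the filter in that fit) was then called in WT mice by edgeR, with 7 at an unadjusted p under 0.05. That choice of libraries was made after their values had been seen.

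**Figure D5:**
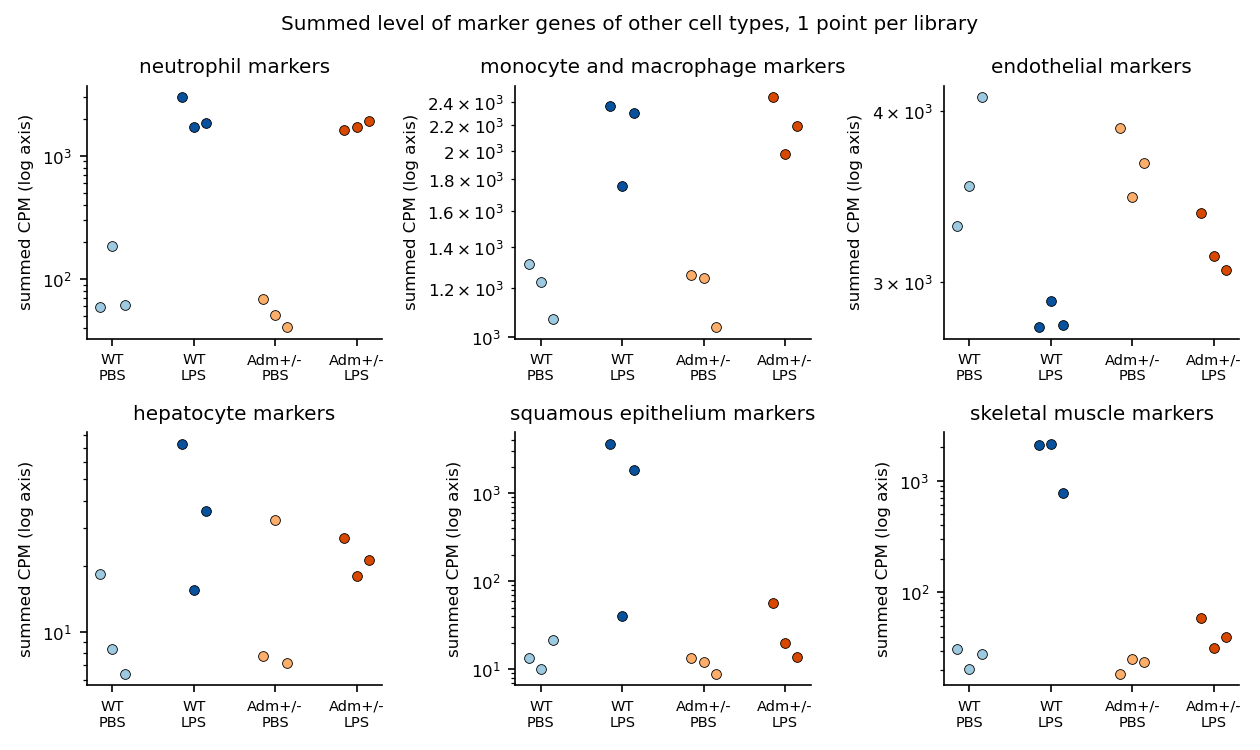
Summed CPM (log axis) of marker genes of 6 cell types or tissues in each library, by group. Neutrophil markers are higher in all LPS libraries, and squamous and skeletal muscle markers are high in WT LPS libraries, with replicate 10 low for the former.

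Total counts per library ran from 22382535 to 38062873, with a median of 28494877, and the 9 genes had 68 to 12001 counts per library, the lowest those of *Procr* and the highest those of *Thbd*. WT PBS replicate 5 and *Adm*+/- PBS replicate 6 stood apart, with 77.8% and 80.1% of counts in protein-coding genes where the rest had 84.3 to 87.6%, and with sums of 8 lung fibroblast markers of 43340 and 27650 CPM where the rest had 10350 to 15740 CPM. Without them the same 5 and 6 of the 9 genes were called. *Adm* itself, the targeted gene, averaged 5.21 ± 1.66 CPM (SD) in WT and 3.69 ± 0.855 CPM in *Adm*+/- mice given PBS, and 6.79 ± 2.03 CPM in WT and 4.65 ± 1.42 CPM in *Adm*+/- mice given LPS; the genotypes overlapped under both treatments, and *Adm* was not called between them (log2 difference -0.50, adjusted p = 0.999 with PBS, and -0.55, adjusted p = 0.479 with LPS, edgeR). Defining markers of lung were abundant throughout, with *Sftpc*, of type II pneumocytes, between 8824 and 9667 CPM on average and *Ager*, of type I pneumocytes, between 1037 and 1294 CPM.

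The genes whose pattern over the 12 libraries was most like each of the 9 were found from log2 CPM centred on its mean, by the root mean square difference. For *F3* they were *Cd38* (0.116), *Fbxl5* (0.145) and *Plat* (0.159), beside a spread of *F3* around its own mean of 0.691. *Plat* was the 1 case in which another of the 9 was among the 3 nearest. For *Plat* they were *Plscr1*, *Dusp16* and *Ppp1r2* (0.118 to 0.156), for *F10* *Pik3r5*, *Rdh12* and *Slc5a1* (0.208 to 0.255), for *F7* *Lcp1*, *Psd4* and *Peg3* (0.105 to 0.123), for *Plaur* *Rnf149*, *Nuak2* and *Ptpn1* (0.110 to 0.166) and for *Procr* *Pogk* (0.117) and *Noc4l* (0.142). For *Tfpi*, *Thbd* and *Plau*, whose own spreads were 0.231, 0.252 and 0.331, the nearest genes were *Pbrm1* (0.044), *Aes* (0.070) and *Irak1bp1* (0.121). These distances describe 12 libraries of 4 groups, and genes that follow the groups alike are near each other by that alone.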

How the data were processed

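Total RNA of 12 lungs was made into rRNA-depleted directional libraries. The authors trimmed reads with Trim Galore, aligned them with HISAT2 (mm10) and assigned them to Gencode genes by featureCounts; the deposited table holds raw gene counts, not normalized. The Gencode release and the strand setting are not given in the sources used here. Positions, lengths and overlaps are from Gencode M21 (99.7% of 52550 genes found); none of the 9 genes overlaps another gene.

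Counts were analysed in R 4.3.3. Of 21950 protein-coding genes, 15885 passed filterByExpr and were scaled by TMM and tested with edgeR 4.0.16 (glmQLFit, glmQLFTest), with 1 coefficient per group, 8 residual degrees of freedom and 5 contrasts; intervals are 95%. The thresholds, an adjusted p of 0.05 and a log2 fold change of 0.5, are those the study names. It used limma, so the main calls here are not the study's own calls. Limma tests are among the alternatives, and the one against 0.5 called fewer genes than the main test. CPM are reads per 1000000 of the TMM-scaled library, and log2 CPM for nearest genes used a prior count of 2. The scripts were tested on simulated data. Alternatives were RLE size factors, DESeq2 1.42.0, limma-voom and its treat test (limma 3.58.1), no filter, all annotated genes, only the libraries of a comparison, and leaving out libraries. All 12 pairs of libraries within a group differed beyond sampling noise. The labels do not say that mice came from separate litters, so p-values measure the spread between these animals. Named genes were the 9, further pathway genes that were called, reached 10 CPM on average or are direct partners, 3 more named after their values were seen, the 3 nearest genes and leading or absent markers. A gene of the pathway and a nearest gene of *Procr* are not reported here, and the first is left out of the counts. The 9 genes and all lists were chosen with earlier results of these data known.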

Additional observations from a re-analysis of the deposited data

How the results depend on the processing

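Over the planned and added settings that leave out no single library, 684 of 746 fold changes of single genes kept their direction and side of the threshold, 46 lost the call, 7 gained it and 9 changed sign. Those between genotypes and of the difference in response were all uncalled in the main fit, so they could not lose a call. The 684 is thus no measure of how well calls held. Most lost calls were of LPS against PBS in WT mice, with 14 under limma's test against 0.5 and 7 with the WT libraries alone. The limma test against 0.5 called 542 genes in WT, 1139 in *Adm*+/- mice, 79 between genotypes in LPS and 0 for the difference in response; of the 9 genes it called 1 (*F10*) in WT and, of the other pathway genes, 1 (*Fga*) in WT and 4 (*F5*, *Fgg*, *Fga* and *Proz*) in *Adm*+/- mice. Fitting only the libraries of the comparison called 1152 genes in WT mice, with 5 other pathway genes (*Serpine2*, *Serpinb2*, *F5*, *Fga* and *A2m*). DESeq2 called 803 genes between genotypes in LPS and 168 for the difference in response, with *Procr* as 1 of the 9 and 3 other pathway genes (*A2m*, *Proz* and *F2rl1*) in the former. limma-voom called 1 gene for the difference. With both PBS libraries that stood apart left out, 548 genes were called between genotypes in LPS. With both WT LPS libraries rich in squamous markers left out, 759 genes and 0 other pathway genes were called in WT mice, and 107 genes between genotypes in LPS. For the latter 2 settings the loss of samples is part of the construction; otherwise the cause was not tested.

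Values that changed sign were all uncalled. Without both PBS libraries that stood apart they were *Tfpi* -0.11 in WT, -0.03 in *Adm*+/- and 0.08 for the difference, *Plau* 0.12 between genotypes in PBS, *Vwf* 0.15 and *Pros1* -0.08 in WT mice; without both squamous-rich libraries *Plau* 0.01 and *Lrp1* -0.02 in WT mice; with all annotated genes *Pcid2* -0.02 in WT mice. Leaving out 1 library at a time gave 1443 (without WT LPS replicate 9) to 3074 genes called in WT, 3033 to 4503 in *Adm*+/- mice, 5 to 65 for the difference, 81 to 573 between genotypes in LPS and 0 in PBS. Of the 9 genes it called 4 to 5 in WT, 6 to 7 in *Adm*+/- mice (*Thbd* added without *Adm*+/- PBS replicate 7 or 8 or *Adm*+/- LPS replicate 1) and 0 to 1 between genotypes in LPS. Of other pathway genes it called 6 (without WT LPS replicate 9) to 12 in WT, 4 (without *Adm*+/- PBS replicate 6) to 10 in *Adm*+/- mice and 0 to 3 between genotypes in LPS. Its ranges crossed 0 for the difference in response of *F3* (-0.12 to 0.41), *Tfpi* (-0.18 to 0.19) and *Plau* (-0.37 to 0.05). In PBS they crossed or reached 0 between genotypes for *F3* (-0.02 to 0.30), *F7* (-0.13 to 0.00), *Tfpi* (-0.11 to 0.25), *Thbd* (-0.13 to 0.06), *Procr* (-0.02 to 0.16), *Plau* (-0.26 to 0.15) and *Plaur* (-0.37 to 0.02), and in LPS for *F10* (-0.13 to 0.52). For LPS against PBS they did so for *Tfpi* (-0.11 to 0.25 in WT, -0.04 to 0.15 in *Adm*+/- mice), *Vwf* (-0.11 to 0.15), *Pros1* (-0.08 to 0.42), *Lrp1* (-0.03 to 0.30) and *Pcid2* (-0.05 to 0.07) in WT and *F2rl1* (-0.11 to 0.01) in *Adm*+/- mice.

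Changes of 0.5 or less on the log2 scale were left out of the calls whatever their p, and the low read counts of some genes widen their intervals. No paired analysis was possible because the labels give no replicate number shared between groups.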
